A study of Arabidopsis thaliana with 12 samples.

Results

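The chloroplast genes *psaA*, *psaB* and *rps14* of Arabidopsis stand in a row on the minus strand and are transcribed together, with *psaA* at the 5′ side of the RNA and *rps14* at its 3′ side. Their RNA was followed in anti-YFP precipitates and in the matching inputs of seedlings that express a tagged bait. In the TAIR10 chloroplast genome *psaA* is 2253 nt long and ends, read along the minus strand, at nt 39605. *psaB* runs from nt 39579 down to nt 37375 (2205 nt), and *rps14* starts at nt 37240 and is 303 nt long. None of the 3 has an intron in the annotation. The members were chosen by position as the minus-strand segments of the deposited count tables that overlap a window from 43 nt before the start of *psaA* to 38 nt past the end of *rps14*. This gave 8 of the 555 precipitate segments and 50 of the 574 input segments, of which 1 and 19 were shorter than 10 nt. The genes are 3 of the 113 annotated chloroplast genes for which counts were formed.

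One line carried *At*MKIP1-YFP in the homozygous *mkip1-2* insertion mutant, where the tagged protein replaces the absent one. The other carried *At*BE3-YFP, a plastid starch branching enzyme with the same tag, in Col-0, which keeps its own *At*MKIP1. In both lines the *UBQ10* promoter drove the bait, so that its level and cell types are those of this promoter and not of the native gene. Seedlings were 10 days old and grown on plates with Basta in cycles of light and dark. Each of 3 pools per line, 10 g each, gave a precipitate and an input library, which makes 12 libraries. Line and bait were confounded by design, and a bait difference cannot be told apart from a difference between the mutant and Col-0 backgrounds.

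PsaA and PsaB are the paired core proteins of photosystem I. Together they hold the special pair of chlorophylls, most of the antenna chlorophylls of the core and the first electron carriers. Rps14 is a protein of the small subunit of the plastid ribosome, so the RNA joins photosynthesis and translation. Long plastid RNAs of this kind are transcribed from a promoter upstream of the first gene, cut and trimmed by nucleases, and protected at their ends by proteins or by folded RNA. Ribosomes in chloroplasts can find start codons through a short purine-rich stretch that pairs with the 16S ribosomal RNA.

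The starts of the 3 reading frames are shown because they mark where the genes follow each other in the RNA. They were read from the RefSeq chloroplast sequence on the minus strand, 5′ to 3′, and capitals mark start and stop codons. The first covers nt 41828 to 41887, the second nt 39562 to 39622 with the end of *psaA*, and the third nt 37211 to 37270.

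*psaA* start: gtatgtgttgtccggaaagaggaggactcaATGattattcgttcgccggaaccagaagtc

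*psaA* stop and *psaB* start: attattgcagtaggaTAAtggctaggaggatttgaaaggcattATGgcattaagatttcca

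*rps14* start: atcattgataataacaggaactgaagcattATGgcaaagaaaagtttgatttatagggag

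The letters GGAGG, searched on the sense strand, stand 5 nt before the start codon of *psaA* and 14 nt before that of *psaB*, and were not found in the 30 nt before that of *rps14*. Of the 78 protein-coding genes searched in the same way, 13 (16.7%) held these letters in the 30 nt before the start. Between the reading frames lie 25 nt (*psaA* to *psaB*) and 134 nt (*psaB* to *rps14*).

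*psaA* and *psaB* code for related proteins, with 349 of 684 aligned residues identical (51.0%). Their DNA shares 15 stretches of 18 nt, the shortest read length kept, and the longest run in common is 32 nt. It is shown because a read that lies within it has no single place of origin. The copy in *psaA* is at nt 40953 to 40984 and that in *psaB* at nt 38729 to 38760.

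Shared run: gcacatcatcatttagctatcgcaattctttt

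None of the 286 stretches of 18 nt in *rps14* was found elsewhere in the chloroplast genome.

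The precipitates had 119799 to 319005 reads mapped to the chloroplast genome per library and the inputs 2213500 to 2868106. The deposited values are raw counts of reads per segment, and a read that crosses a border is counted on both sides of it. Levels are therefore given as reads per kb of segment and per 1000000 mapped reads, with the segment lengthened by the mean read length of the library less 1 nt. A level of this kind is a share of the library. The transcripts of the baits are nuclear and not in these chloroplast counts, so the labels were not checked against them. The target loci of *At*MKIP1-YFP, a fixed set of intron-containing genes and their neighbours to which *psaA*, *psaB* and *rps14* do not belong, held 38.3% to 39.8% of the reads in its 3 precipitates. In those of *At*BE3-YFP they held 4.86% to 7.38%, and in the inputs 1.32% to 1.60%. The input share leaves out *trnK*, which lies there in 1 segment with *matK* and *rps16*. Segments mostly outside the target loci were not counted, so the input share is not comparable with those of the precipitates. In each precipitate all other RNAs have to share the remainder. Across all 108 genes tested in the precipitate the median log2 difference between *At*MKIP1-YFP and *At*BE3-YFP was -0.73. Differences in the precipitate are given beside this shift.

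In the inputs the 3 genes had similar levels in both lines. *psaA* had levels of 1574, 1706 and 2038 in the *At*MKIP1-YFP line and 1737, 1548 and 1564 in the *At*BE3-YFP line. *psaB* had 1615, 1801 and 2096 against 1940, 1638 and 1663. *rps14* had 1471, 1563 and 1832 against 1605, 1395 and 1503. The groups overlapped for each gene, and the highest value of each gene came from the third *At*MKIP1-YFP pool. The log2 difference was 0.14 for *psaA* (SE, the standard error, 0.14, n = 3 pools per line), 0.08 (0.14) for *psaB* and 0.13 (0.17) for *rps14*, with an adjusted p of 0.99 for each (edgeR, quasi-likelihood test). Taken as 2 standard errors to either side, the interval ran from -0.14 to 0.42 for *psaA*, from -0.19 to 0.36 for *psaB* and from -0.20 to 0.46 for *rps14*. Of all 112 genes tested in the input 0 (0%) were called, 2 had an unadjusted p under 0.05, and DESeq2 with mapped reads also called 0.

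**Figure D1:**
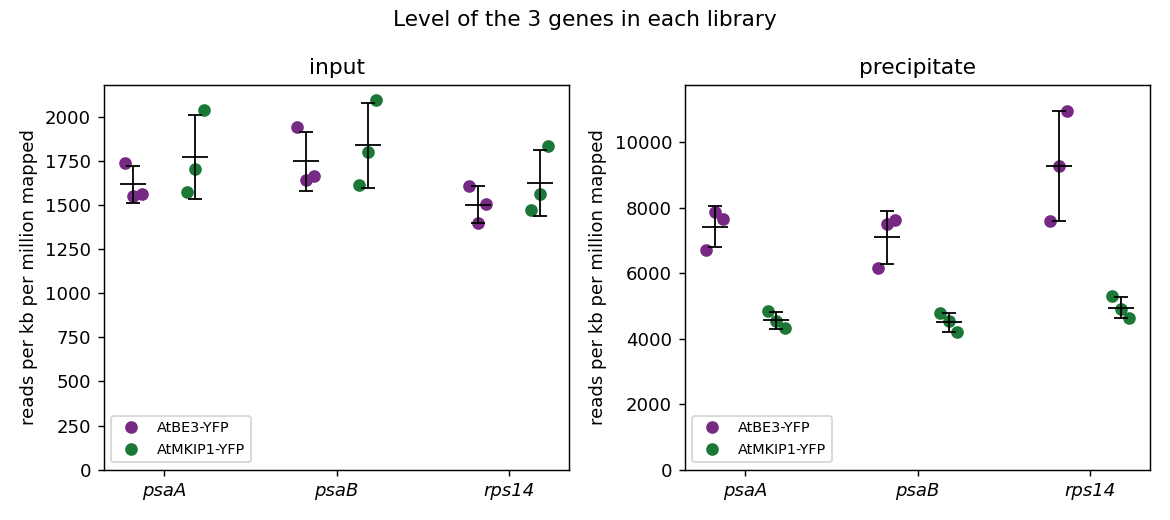
Level of *psaA*, *psaB* and *rps14* in reads per kb per 1000000 mapped reads, in the input (left) and the precipitate (right). Points are the 3 pools per line, bars the mean and SD. The lines overlap in the input, whereas in the precipitate every *At*MKIP1-YFP value of a gene lies below every *At*BE3-YFP value of it and *rps14* is highest. Of all 553 precipitate segments tested, 99 were separated in this direction and 412 in the other.

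The order of the genes in the input was the same in all 6 libraries, with *psaB* above *psaA* and *psaA* above *rps14*. The steps were small. The ratio of *psaB* to *psaA* was 1.04 ± 0.0165 (SD, n = 3) in the *At*MKIP1-YFP line and 1.08 ± 0.0322 in the *At*BE3-YFP line. The ratio of *rps14* to *psaA* was 0.917 ± 0.0178 and 0.929 ± 0.0301. Neither ratio passed a test between the lines (2-sided exact permutation test, n = 3 against 3, p = 0.1 and p = 0.6, with 0.1 the smallest p this design allows).

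Of the 29 other photosynthesis mRNAs on a list, 7 to 9 had a higher input level than *psaA*, and 7 to 9 a higher one than *psaB*, depending on the library. Among them was *psbC*, for a chlorophyll-binding core antenna protein of photosystem II, with an input level 3.10 to 3.40 times that of *psaA*. *psbB*, which codes for the companion antenna protein, lay a little below *psaA*, at 0.869 to 0.967 times its level. The other plastid genes of photosystem I were lower in the input. *psaC*, for the subunit with the terminal iron-sulfur clusters, had input levels of 731 to 980. *psaI* and *psaJ*, for small membrane subunits, had 316 to 504 and 81.2 to 113, and the assembly factor genes *ycf3* and *ycf4* had 256 to 378 and 139 to 195.

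Along the RNA the input level was uneven, and the rises and dips given here were seen in both lines. The highest level over 50 nt or more lay at the 5′ end, at nt 41608 to 42030, which holds the first 250 nt of *psaA* and 173 nt before its start. It had levels of 2875, 3338 and 3806 in the *At*MKIP1-YFP line and 3290, 2832 and 2813 in the *At*BE3-YFP line, 1.80 to 1.96 times the level of *psaA* as a whole in the same library. A second rise at nt 39238 to 39647 covered the junction shown above, from 43 nt of the end of *psaA* through the spacer into 342 nt of *psaB*, and reached 2243 to 3021. Further rises lay inside *psaB* at nt 37498 to 37680 (1936 to 2530) and at the 3′ end of *rps14* at nt 36839 to 37069 (2006 to 2547). Of the 231 nt of the last, 99 lie past *rps14*. These 4 stretches were above the level of *psaA* in 6 of 6 libraries.

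The lowest level over 50 nt or more lay between *psaB* and *rps14*. The segment at nt 37283 to 37389, of which 15 of 107 nt are the last of *psaB* and the rest is spacer, had 659, 631 and 826 in the *At*MKIP1-YFP line and 831, 681 and 633 in the *At*BE3-YFP line. This was 0.370 to 0.478 times the level of *psaA*. The 5′ part of *rps14* followed with 929 to 1288 (nt 37072 to 37281), below the segment at its 3′ end in each library. Between these, nt 37070 and nt 37071, segments of 1 nt each, were lower still, at 385 to 589 and 418 to 639. Inside *psaA* a stretch at nt 40184 to 40287 was also low, at 875 to 1092. The lowest level of all segments of at least 10 nt was 253 to 466, at nt 40965 to 40975 in *psaA*. This stretch of 11 nt lies wholly within the run of 32 nt that *psaA* shares with *psaB*. The part of reads with more than 1 possible origin in this trough was not tested.

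**Figure D2:**
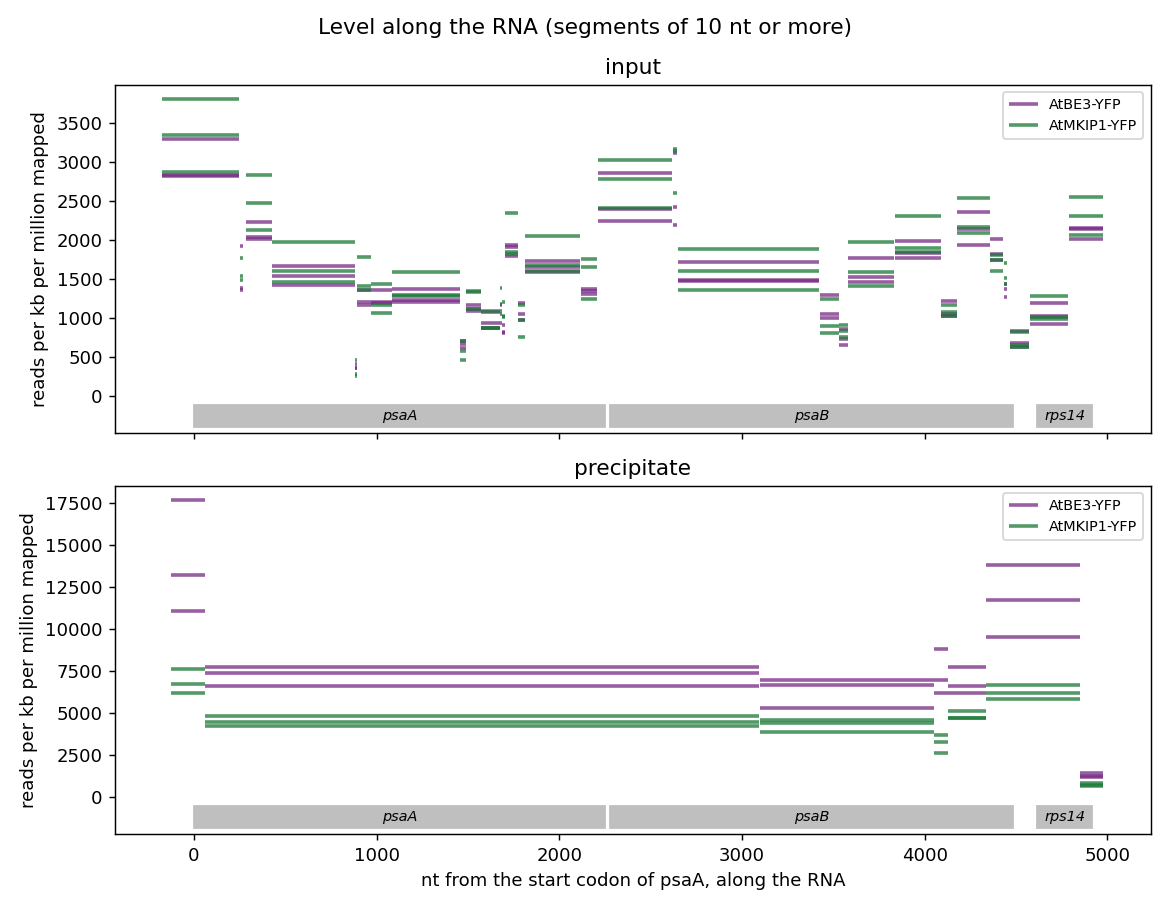
Level along the RNA in reads per kb per 1000000 mapped reads, against distance in nt from the start codon of *psaA*, for the input (top) and the precipitate (bottom). Each line is 1 segment of at least 10 nt in 1 library, grey boxes are the genes, and segments that run on past the end of *rps14* were cut shortly after it. The input rises at the start of *psaA* and at the junction of *psaA* and *psaB* and dips before *rps14*, and in the precipitate the segments over the start of *psaA* and the start of *rps14* stand above the long segment between them.

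None of the 50 input segments differed between the lines in edgeR's test at an adjusted p under 0.01, and the smallest adjusted p was 0.26. Over all 572 input segments tested 9 (1.57%) were higher and 1 (0.175%) lower in the *At*MKIP1-YFP line. Among the 50 the log2 difference ran from -0.17 to 0.47 with a median of 0.12, and 40 were above 0. The median over all input segments was 0.07. The 4 segments with an unadjusted p under 0.05 were of 1 to 13 nt, at nt 39648 to 39650 and within nt 40155 to 40169, and none passed the adjustment. DESeq2 also called none of the 50, with mapped reads or its own size factors.

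In the precipitates the baits held different shares of this RNA. Per mapped read, all 3 genes were lower with *At*MKIP1-YFP than with *At*BE3-YFP, *psaA* and *psaB* by nearly as much as the median chloroplast gene and *rps14* by more. *psaA* had levels of 4842, 4527 and 4310 with *At*MKIP1-YFP and 6711, 7874 and 7662 with *At*BE3-YFP. *psaB* had 4772, 4533 and 4192 against 6162, 7494 and 7609. *rps14* had 5292, 4913 and 4638 against 7598, 9267 and 10935. The groups did not overlap for any of the 3 genes, and the spread was widest for *rps14* with *At*BE3-YFP. Separation in either direction was common, since of all 553 precipitate segments tested 99 were separated in this direction and 412 in the other.

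The log2 difference in the precipitate was -0.70 for *psaA* (SE 0.13, edgeR adjusted p = 1.1e-04), -0.65 for *psaB* (0.13, adjusted p = 2.7e-04) and -0.90 for *rps14* (0.14, adjusted p = 1.9e-05), with n = 3 pools per bait. This leaves 61.5%, 63.7% and 53.7% of the *At*BE3-YFP level. Calls of this kind were common, since 76 of the 108 genes tested (70.4%) were lower. Against the median of all genes *psaA* stood 0.03 higher, *psaB* 0.08 higher and *rps14* 0.17 lower on the log2 scale. When libraries were scaled to the segments beyond the target loci, the differences were -0.09 (adjusted p = 0.65), -0.04 (adjusted p = 0.87) and -0.29 (adjusted p = 0.15), so none of the 3 was called. The lowering per mapped read therefore holds for shares of the library, and none was called relative to the other RNAs outside the target loci.

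The 8 precipitate segments gave the same picture, with coarser borders than in the input. By edgeR's test 6 of the 8 were lower and none higher, beside 84 of all 553 segments tested (15.2%) lower and 400 (72.3%) higher. Beyond the target loci, 84 of 135 segments (62.2%) were called lower, and the median log2 difference of these 135 was -0.73. In 7 of the 8 members all *At*MKIP1-YFP levels lay below all *At*BE3-YFP levels. Separation in either direction was the rule, since of the 553 segments 99 were separated in this direction and 412 in the other. The share separated beyond the target loci alone was not counted. None of the 8 was called with scaling outside the target loci, where the values ran from -0.55 to 0.65.

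At the 5′ end, nt 41797 to 41982, which holds 61 nt of *psaA* and 125 nt before it, the levels were 6151, 6728 and 7627 with *At*MKIP1-YFP and 11086, 13181 and 17661 with *At*BE3-YFP. The log2 difference there was -1.01 (SE 0.20, edgeR adjusted p = 2.9e-04). The longest segment inside the span of *psaA* and *psaB*, nt 38761 to 41796, runs from the middle of *psaB* through most of *psaA*. It had 4806, 4466 and 4217 against 6589, 7726 and 7384. Its difference was -0.68 (SE 0.18, edgeR adjusted p = 0.0026). The baits were separated in both, and within each bait the 5′ end lay above the long segment in every library.

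The rest of *psaB* was split into 4 segments of its own and a part of the segment that runs on into *rps14*. The segment at nt 37804 to 38759 had 4555, 4410 and 3854 against 5277, 6644 and 6969, a log2 difference of -0.56 (SE 0.18, edgeR adjusted p = 0.0092). The segment at nt 37523 to 37727 had 5120, 4667 and 4688 against 6179, 7730 and 6616, and with -0.49 and an adjusted p of 0.021 in edgeR's test it did not pass. Between them the 76 nt at nt 37728 to 37803 had the largest difference of the members, -1.16 (SE 0.24, edgeR adjusted p = 4e-04), with 2601, 3294 and 3657 against 6176, 6940 and 8820. Its levels with *At*MKIP1-YFP were below those of both neighbours in all 3 libraries, whereas with *At*BE3-YFP they lay within or above them. A single nt at 38760 had 5 to 25 reads per library and a difference of 0.04 (edgeR adjusted p = 0.92). Read along the RNA it is the first nt of the run shared with *psaA* in its copy in *psaB*, and its levels of 1306 to 3123 were below those of both neighbours in every library.

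*rps14* was split between 2 segments. The segment at nt 37008 to 37522 covers 233 nt of *rps14*, the 134 nt of spacer and the last 148 nt of *psaB*, and had 6629, 6173 and 5836 with *At*MKIP1-YFP against 9506, 11698 and 13791 with *At*BE3-YFP. The log2 difference was -0.90 (SE 0.18, edgeR adjusted p = 3.7e-04). The remaining 70 nt of *rps14* fall into a segment of 8011 nt, nt 28997 to 37007, which spans *trnfM* and other loci downstream. Its levels were 840, 721 and 650 against 1246, 1175 and 1426, with a difference of -0.80 (SE 0.18, edgeR adjusted p = 9.4e-04), and say little about *rps14* itself. The value of *rps14* in the precipitate therefore rests mainly on the segment it shares with *psaB*, and the dip of the input level in the spacer could not be looked for there.

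The order of the 3 genes in the precipitate was not that in the input. *rps14* had the highest level in 6 of 6 precipitates and the lowest in 6 of 6 inputs. Its ratio to *psaA* in the precipitate was 1.09, 1.09 and 1.08 with *At*MKIP1-YFP and 1.13, 1.18 and 1.43 with *At*BE3-YFP. The baits did not overlap in this ratio, and the exact permutation test gave p = 0.1, the smallest possible with 3 against 3. Removal of ribosomal RNA and fragmentation are described for the input RNA only, so a difference in order between the fractions cannot be told apart from this treatment. Nor can it be told apart from the coarser borders in the precipitate, where *rps14* shares its main segment with *psaB* and the spacer.

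Of the 29 other photosynthesis mRNAs 12 to 14 had a higher precipitate level than *psaA* and 9 to 13 a higher one than *rps14*. The level in the precipitate over that in the input of the same line and number was 3.08, 2.65 and 2.11 for *psaA* with *At*MKIP1-YFP and 3.86, 5.09 and 4.90 with *At*BE3-YFP. For *psaB* it was 2.95, 2.52 and 2.00 against 3.18, 4.57 and 4.58, and for *rps14* 3.60, 3.14 and 2.53 against 4.73, 6.64 and 7.27. A ratio above 1 was thus seen in both lines, the control included. It compares shares of libraries of unlike make-up. The 16S ribosomal RNA had levels of 202729 to 225814 in the inputs and 30532 to 43568 in the precipitates. The 23S ribosomal RNA had 119652 to 143649 and 40851 to 60511. How much of the ratio comes from this smaller share of ribosomal RNA was not tested, so a ratio above 1 is not a measure of recovery by a bait. Other photosynthesis mRNAs covered a wide range. *psbA*, for the D1 protein of photosystem II, had ratios of 5.68 to 12.6, *rbcL*, for the large subunit of Rubisco, 1.86 to 5.15, and *psbC* 0.491 to 1.18. While *psbC* was above *psaA* in 6 of 6 inputs, it was below it in 6 of 6 precipitates, at 0.744 to 0.861 times its level. The opposite held for *psbB*, at 1.15 to 1.59 times the level of *psaA* in the precipitates. In the precipitate 83.3% of *psbC* lies in 1 segment of 12800 nt that runs on well past the gene. In the input no segment holds more than 24.7% of *psbC*. Its precipitate level is therefore not that of *psbC* alone, and its change of order between the fractions is limited by this.

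The bait difference in the precipitate differed from that of the lines in the input by -0.85 for *psaA* (SE 0.19, adjusted p = 2e-05), -0.74 for *psaB* (0.19, adjusted p = 2.1e-04) and -1.03 for *rps14* (0.20, adjusted p = 8.1e-07), in edgeR's test of the interaction of bait and fraction over all 12 libraries. Again this was the common case, with 63 of 113 genes (55.8%) lower and a median of -0.79. With scaling outside the target loci none of the 3 was called (-0.23, -0.12 and -0.41, adjusted p = 0.50, 0.82 and 0.12).

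Beside the other photosynthesis mRNAs, *psaA* and *psaB* were among the less lowered in the *At*MKIP1-YFP precipitates. Per mapped read all 29 mRNAs of the list were called lower, whereas with scaling outside the target loci 11 were, and 2 (*psbB* and *petB*) had values above 0. Per mapped read they had log2 differences from -1.28 to -0.42 and a median of -0.93, against -0.73 over all genes. Of the 29, 23 had a lower value than *psaA*, 27 a lower one than *psaB* and 15 a lower one than *rps14*. The list is not one of 29 independent values, since in the precipitate its genes lie mainly in 19 different segments. The largest differences among the named genes were those of *atpB*, for the beta subunit of ATP synthase, with -1.27 (SE 0.16), and of *psaC* with -1.20 (0.13). The smallest were those of *psbB* with -0.42 (0.13) and of *petB*, for cytochrome b6, with -0.58 (0.12). Nearest to the mean of *psaA* and *psaB* were *psbC* (-0.68), *psbZ* (-0.67) and *psbD* (-0.70), which lie next to each other on the opposite strand. All of these passed edgeR's test (largest adjusted p = 0.0061, for *psbB*). In the precipitate *psbZ* lies within the segment that also holds 83.3% of *psbC*. The values of *psbC* and *psbZ* are therefore not separate measurements. That segment, nt 33957 to 46756, also runs opposite all of *psaA*, *psaB* and *rps14*, so its value is not that of the photosystem II mRNAs alone.

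**Figure D3:**
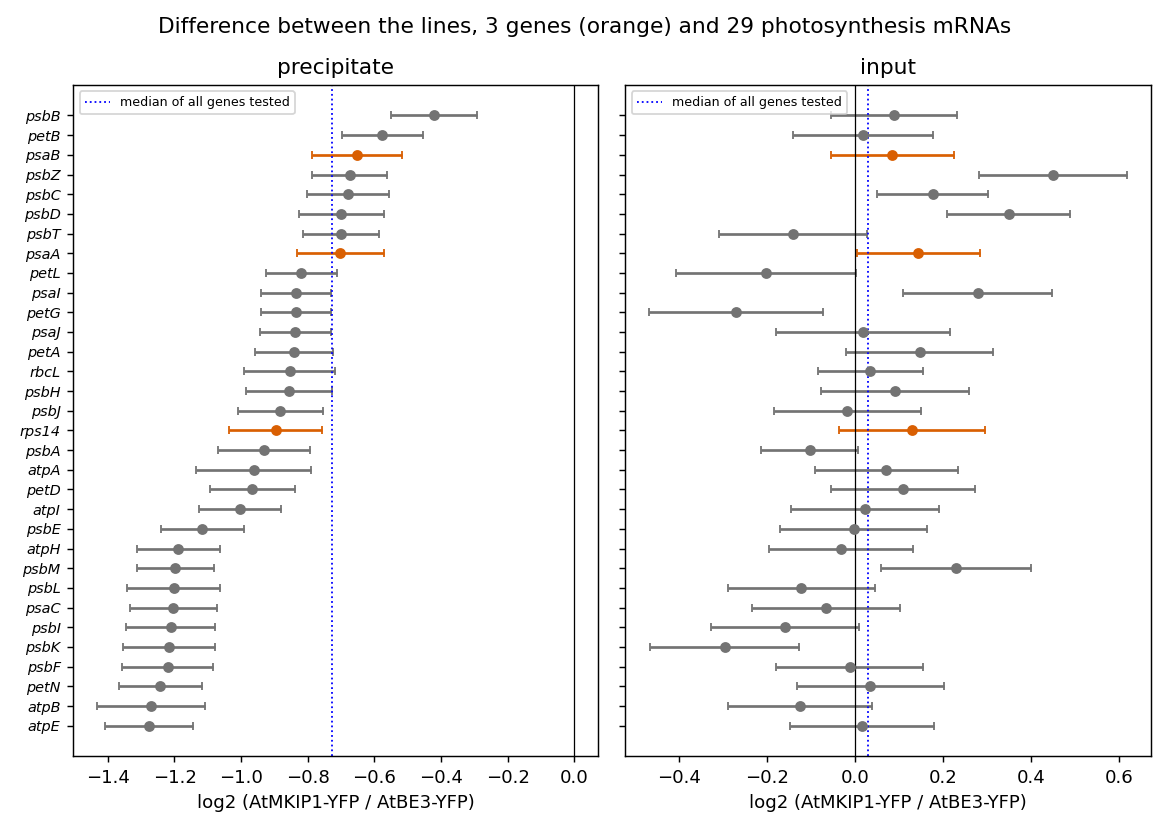
Log2 difference between *At*MKIP1-YFP and *At*BE3-YFP for *psaA*, *psaB* and *rps14* (orange) and the 29 other photosynthesis mRNAs (grey) in the precipitate (left) and the input (right), ordered by the precipitate value. Bars are standard errors and the dotted line is the median of all genes tested. In the precipitate all values lie below 0, with *psaA* and *psaB* near the dotted line at -0.73 and *rps14* below it. Values are per mapped read, and with scaling outside the target loci *psbB* and *petB* turn above 0.

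The other plastid genes of photosystem I were lower per mapped read too. All 5 (*psaC*, *psaI*, *psaJ*, *ycf3* and *ycf4*) passed the test in the precipitate, although with scaling outside the target loci 1 of them did (*psaC*, -0.59) and *ycf3* turned to 0.01. Per mapped read the values ran from -1.20 to -0.60 with a median of -0.84 beside -0.73 over all genes, and none of the 5 was called in the input by edgeR. In the precipitate *psaI*, *psaJ* and *ycf4* lie within 1 segment, so that they share a level and are not separate measurements. *ycf3*, the next gene upstream of *psaA* on the same strand, had -0.60 (SE 0.12, edgeR adjusted p = 2.0e-04) and levels of 706, 638 and 590 against 866, 994 and 1072, far below those of *psaA*. These levels are those of 1 segment that *ycf3* shares with *rps4*, *ndhJ*, *ndhK* and *ndhC*, and not of *ycf3* alone. Of the other genes for proteins of the small ribosomal subunit, with the parts of *rps12* counted apart, 7 of 12 were lower and 2 higher per mapped read in the precipitate, with a median of -0.60, and 0 lower and 2 higher with scaling outside the target loci. The 2 that were higher, named after their values had been seen, were *rps19* and the joined exons 2 and 3 of *rps12*, which lie in the target loci. The log2 difference of *rps14* was below that of 11 of these 12.

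To set *psaA* and *psaB* against the list without any scaling of libraries, the log2 ratio of their mean level to the median level of the 29 mRNAs was taken within each library. In the precipitate it was 0.38, 0.36 and 0.44 with *At*MKIP1-YFP and 0.13, 0.33 and 0.02 with *At*BE3-YFP. The baits did not overlap, with a mean difference of 0.23, but the exact permutation test cannot go below p = 0.1, which is what it gave. In the input the ratio was 1.12, 1.03 and 1.16 against 0.91, 1.02 and 0.96, a difference of 0.14 (exact permutation test, p = 0.1), and with plain segment lengths this turned to -0.16. On average *psaA* and *psaB* stood above the median of the list by 1.11 and 0.96 on the log2 scale in the inputs of the lines, and by 0.39 and 0.16 in the precipitates. The values of input and precipitate are not comparable. The list lies mainly in 28 different segments in the input and 19 in the precipitate, and removal of ribosomal RNA and fragmentation are described for the input only.

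Along the RNA, each *At*MKIP1-YFP precipitate had a smaller spread of levels than each *At*BE3-YFP precipitate. The coefficient of variation over the 7 segments of at least 10 nt, weighted by length, was 16.9%, 16.5% and 18.4% with *At*MKIP1-YFP and 20.9%, 21.3% and 30.1% with *At*BE3-YFP. The 7 include the segment of 8011 nt at nt 28997 to 37007, weighted by its 70 nt in *rps14*. Its low level is mostly that of other loci downstream and enters the coefficient with both baits. No alternative setting left it out. The mean difference was -6.87 percentage points (2-sided exact permutation test, n = 3 against 3, p = 0.1, the smallest possible). Without *At*BE3-YFP pool 3, the library with the fewest mapped reads, it was -3.87. In the input, over 31 segments, the coefficient was 34.2%, 37.9% and 33.7% in the *At*MKIP1-YFP line and 33.5%, 31.6% and 32.3% in the *At*BE3-YFP line. That difference was 2.84 percentage points (exact permutation test, p = 0.1), and 1.52 without *At*MKIP1-YFP pool 2. Input and precipitate coefficients are not comparable, since the input has more and shorter segments.

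**Figure D4:**
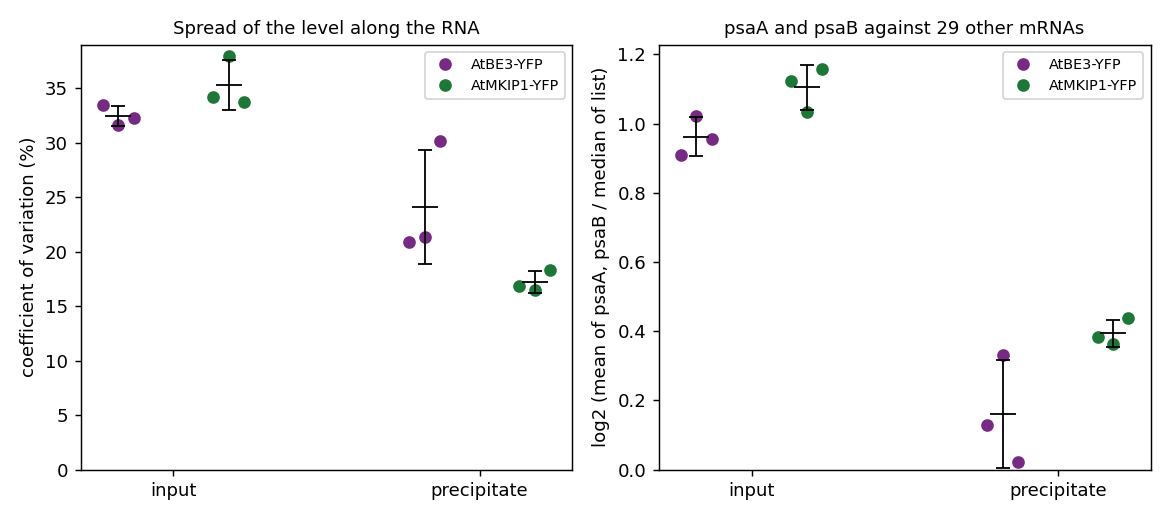
Coefficient of variation of the level along the RNA in percent (left) and log2 ratio of *psaA* and *psaB* to the median of 29 other photosynthesis mRNAs (right), in the input and the precipitate. Points are the 3 pools per line, bars the mean and SD. In the precipitate the coefficient is 16.5% to 18.4% in the *At*MKIP1-YFP pools and 20.9% to 30.1% in the *At*BE3-YFP pools.

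The start of *psaA* and the stretch from the end of *psaB* into *rps14* stood above the long segment between them in every precipitate. Relative to the long segment of *psaA* and *psaB*, the 5′ end segment was 1.28, 1.51 and 1.81 times as high with *At*MKIP1-YFP and 1.68, 1.71 and 2.39 times as high with *At*BE3-YFP, ranges that overlap (exact permutation test on log2 ratios, p = 0.3). The segment of the end of *psaB* and the start of *rps14* was 1.38, 1.38 and 1.38 times as high with *At*MKIP1-YFP and 1.44, 1.51 and 1.87 times as high with *At*BE3-YFP, and these ranges do not overlap (p = 0.1 in the same exact test). Both ratios were chosen after the values had been seen. Reads from the opposite strand over the same region lay in 1 segment of 12800 nt in the precipitate (levels of 1721 to 3130) and 1 of 10097 nt in the input (434 to 578), which hold several other genes. The precipitate segment is the one named above that holds *psbZ* and 83.3% of *psbC*.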

How the data were processed

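RNA was measured in 12 libraries, 3 per group. According to the methods, the authors used Cutadapt for trimming, retained lengths of 18 to 60 nt, aligned with STAR to the TAIR10 chloroplast genome without the second inverted repeat, removed duplicates with UMI-tools and set segment borders with DiffSegR. Versions are not given in the sources used here. DiffSegR joins stretches with similar differences between the baits, so borders and tests rest on the same contrast. The deposited counts are whole reads per segment and strand, and the authors' deposited counts of mapped reads served as library sizes. For the input, the table header does not say that duplicates were removed. The authors' own comparison tables hold fold changes and p-values and were not used.

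Segments were tested with edgeR (version 4.0.16, under R 4.3.3) by its quasi-likelihood test. Library sizes were the mapped reads and no further factor was applied, genes or segments of low count were dropped by the default filter, and a Benjamini-Hochberg adjusted p under 0.01 was called. For a value per gene, the counts of a segment were shared out by its overlap with the exons, summed and rounded. For levels, the mean read length of each library was solved from its segment counts and mapped reads (31.9 to 37.0 nt). The interaction takes the 12 libraries as independent. DESeq2 1.42.0 was an alternative, as were other scalings, no filter, other read lengths, a replicate block and leaving out each library. Summaries and figures used Python with pandas, numpy and matplotlib. The members, lists and rules were chosen with earlier results of these data known. Named are the members, 5 other photosystem I genes, 7 of the listed photosynthesis mRNAs (*psbA*, *psbB*, *psbC*, *psbD*, *petB*, *rbcL* and *atpB*) and the 3 listed mRNAs nearest to *psaA* and *psaB* in their precipitate difference. Pools are separate samples of seedlings of 1 line each, so p-values measure the spread between pools.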

Additional observations from a re-analysis of the deposited data

Results flagged for a closer look

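The difference between *At*MKIP1-YFP and *At*BE3-YFP was not the same in the precipitate and the input for any of the 3 genes, by edgeR's test of the interaction of bait and fraction. On the log2 scale the precipitate difference minus the input difference was -0.85 for *psaA*, -0.74 for *psaB* and -1.03 for *rps14*, beside a median of -0.79 over all 113 genes. Groups of 3 pools were too small for a test of single libraries that stand apart.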

How the results depend on the processing

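The differences in the precipitate depend on what the libraries are scaled to. For *psaA*, *psaB* and *rps14* in this order, the log2 difference between the baits was -0.15, -0.091 and -0.31 with no library scaling, -0.0070, 0.046 and -0.20 with TMM, -0.094, -0.043 and -0.29 with scaling outside the target loci, and 0.032, 0.085 and -0.16 with the size factors of DESeq2, and none of these was called. The interaction of bait and fraction was likewise not called with no scaling (-0.35, -0.23 and -0.50), TMM (-0.023, 0.088 and -0.20) or scaling outside the target loci (-0.23, -0.12 and -0.41). With the sum of segment counts as library size the differences were larger and called, at -1.42, -1.37 and -1.62 in the precipitate and -1.56, -1.45 and -1.74 in the interaction. Of the 8 precipitate segments 0 were lower with no scaling and 0 with scaling outside the target loci, beside 1 of 554 and 18 of 553 over all segments. All 8 were lower with TMM (198 of 553 over all) and with the size factors of DESeq2 (184 of 555), against 84 of 553 as reported. Leaving out 1 library changed no call of the 3 genes in the precipitate or the interaction, and gave 4 to 6 lower segments. In the input it gave -0.012 to 0.16 for *psaB*, never called. The ratio of *psaA* and *psaB* to the other mRNAs in the input turned to -0.16 with plain segment lengths.

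Same-numbered samples did not deviate together (correlations of -0.15, 0.04 and -0.14 over 462 precipitate segments), so the numbers do not pair the lines. With the replicate block the precipitate values were -0.70, -0.65 and -0.89, all called, with 4 lower segments. Input and precipitate of the same line and number were taken as 1 pool. Their deviations did not go together either (correlations of -0.19 to 0.06 over 113 genes). With each pool as a block the interaction stayed called (-0.84, -0.73 and -1.01). Depth limits the short segments most, with 5 to 25 reads in the shortest precipitate segment.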

Other observations

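Upstream of the counted window, the input level changed within a few nt. The segment at nt 42031 to 42033, whose upstream edge is 176 nt before the start codon of *psaA*, had 343 to 644 reads per library. The next segment upstream, nt 42034 to 42601, had 406 to 758 reads over 568 nt. The level at nt 41608 to 42030 was 7.59 to 9.65 times that of nt 42034 to 42601 in the same library, in both lines. The border was noticed after the values had been seen, and no test was run on it.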
